A study of Mus musculus with 24 samples.

Results

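The cytosolic ribosomal proteins are described here as 349 of the 48544 genes listed for C2C12 muscle cells. They were chosen by name: Rpl or Rps followed by a number and at most 1 letter, the stalk genes Rplp0 to Rplp2, and Rpsa and Fau. The deposited names are cut at the hyphen, so a processed copy such as Rpl3-ps1 is listed as Rpl3 and enters by the name of its parent. Of the 349 rows, 77 were the parent genes themselves (43 of the large subunit, 3 of the stalk and 31 of the small subunit), 5 were paralogues (Rpl3l, Rpl10l, Rpl39l, Rps27l and Rps4l) and 267 were copies, 260 of them annotated as pseudogenes.

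Polyadenylated RNA was sequenced from 24 libraries of C2C12, an established clonal mouse myoblast line of wild-type genotype that fuses into myotubes when serum is lowered. Each of 6 groups had 4 libraries. Day 0 myoblasts were harvested from medium with 10% fetal bovine serum, and all other groups had been in 2% serum since day 0. Day 7 myotubes were harvested untreated. From day 7, further myotubes were kept for 24 h or 72 h (day 8 or day 10) in vehicle medium with 1% ethanol or in medium with 100 µM dexamethasone, a synthetic glucocorticoid used to induce atrophy. The labels name ethanol only for the vehicle medium. Nothing in them ties a replicate to its own culture dish or passage, and each p-value below therefore reflects only variation among these libraries, possibly technical.

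A ribosome holds 1 copy of almost every ribosomal protein, bound to ribosomal RNA in a small subunit that decodes mRNA and a large subunit that joins amino acids. The acidic stalk proteins, present in more than 1 copy, recruit translation factors to the large subunit. Ribosomal protein mRNAs begin with a short run of pyrimidines, the 5′ terminal oligopyrimidine or 5′TOP motif, through which mTOR signalling and the protein Larp1 control their translation. Rpl3 sits near the peptidyl transferase centre of the large subunit, and Rpl3l is its paralogue of adult heart and skeletal muscle. Mammalian genomes also hold many processed pseudogenes of ribosomal protein mRNAs, whose sequence can be nearly that of the parent.

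The first 15 bases after the annotated start, with the 15 before, are shown for 5 parents and 2 paralogues because they show the 5′TOP motif where the annotated start holds it, and a window of Rpl3l without it. They are RefSeq sequences of GRCm38.p6, written 5′ to 3′ on the gene's strand. Capitals mark a run of at least 5 pyrimidines that begins with C at, or within 5 bases of, the start.
Rps18 (chr17:33955651-33955680, minus strand): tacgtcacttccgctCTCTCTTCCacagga
Rpl28 (chr7:4792950-4792979, plus strand): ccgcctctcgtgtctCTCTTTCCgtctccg
Rps6 (chr4:86857353-86857382, minus strand): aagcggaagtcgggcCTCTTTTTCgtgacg
Rplp2 (chr7:141447636-141447665, plus strand): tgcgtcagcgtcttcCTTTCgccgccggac
Fau (chr19:6057932-6057961, plus strand): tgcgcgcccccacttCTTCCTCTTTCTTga
Rps27l (chr9:66946071-66946100, plus strand): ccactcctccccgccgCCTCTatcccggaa
Rpl3l (chr17:24727811-24727840, plus strand): gagtgttctagctctgtcatttgacctctg
Promoter entries were matched for 61 of the 82 parents and paralogues, giving 67 starts for 57 of the parents. A C followed by 4 pyrimidines stood exactly at the annotated start in 14 of the 67 (20.9%), against 2.51% of all 32851 promoters. Allowing the C to lie within 5 bases of the start gave 44.8% against 18.3%. The letters CCGGAAG, searched on both strands of the 300 bases from 250 before to 50 after the start, were found in 35.8% against 8.86%. A match is a description of the sequence and not a measured site.

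Much of the ribosomal protein signal was listed under copies and not under the parent gene. The parent row held under 50% of the summed TPM (transcript abundance scaled by length and library total) of its family in 16 of 77 families, 50% to 90% in 11, and over 90% in 50. A family here is the parent with every copy that shares its name or matches it with at least 95% identity over at least 90% of the coding length. Rps12, a small-subunit protein, had a mean of 0.75 TPM in its own row, while Rps12-ps3, identical to it over 400 aligned bases, had 3074 TPM. The Rps2 row held 12.9 TPM and Rps2-ps10 held 3488 TPM. The Rpl5 row held 62.0 TPM, while Gm15500, identical over 1018 bases and named outside the pattern, held 1296 TPM. For Rpl12, a protein at the base of the stalk, the row held 56.1 TPM against 1687 TPM in Gm10275, which is identical over 634 bases.

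**Figure D1:**
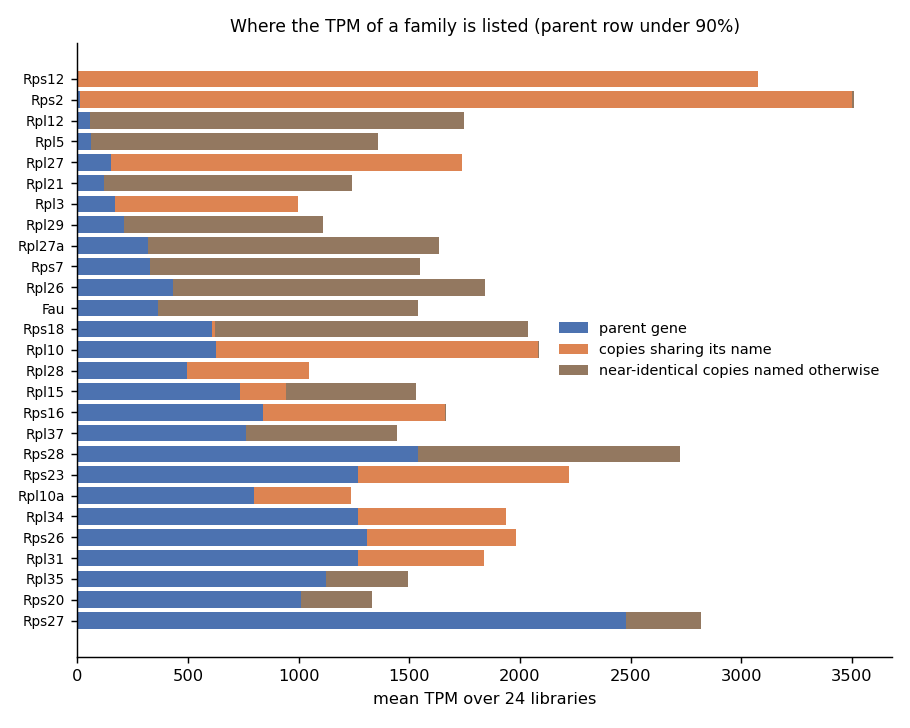
Mean TPM over 24 libraries (x axis, from 0) of the 27 families whose parent row held 90% or less of the family sum, split into the parent gene, copies that share its name and near-identical copies named otherwise. Rps12 and Rps2 are listed almost wholly under copies that share their names, and Rpl12 and Rpl5 almost wholly under copies with other names.

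Rpl3 shows how little separates such rows. Over 1210 aligned bases Rpl3-ps1 differed from Rpl3 at 2 positions (99.84% identity), C57A and T786C, counted from the A of the start codon with the parent's base first. The 29 bases around each are printed with the differing base in capitals.
Rpl3 at position 57: ggcttcctgcctcgCaagcgcagcagccg
Rpl3-ps1 at position 57: ggcttcctgcctcgAaagcgcagcagccg
Rpl3 at position 786: caccctgcccgtgtTgccttctctgtggc
Rpl3-ps1 at position 786: caccctgcccgtgtCgccttctctgtggc
The Rpl3 row had a mean of 170 TPM and Rpl3-ps1 one of 828 TPM. Because reads of such pairs are nearly the same, the share given to each row is uncertain, and levels below are family sums unless a single row is named. Of the 349 rows, 66 were at 0 TPM in every library and 112 reached a mean of 1 TPM, 35 of them copies. A further 297 near-identical rows carry names outside the pattern, 17 of them at 100 TPM or more.

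The families lay close together in level. Family means ran from 917 TPM (Rpl22) to 6484 TPM (Rpl41, a very short basic protein of the large subunit), with a median of 1544 TPM. The next after Rpl41 was Rplp1 at 3617 TPM, 3.94 times the lowest, and 69 of the 77 families lay between 900 and 2500 TPM. The highest single rows were Rpl41 (6481 TPM), Rplp1 (3551 TPM), Rps2-ps10 (3488 TPM), Rps12-ps3 (3074 TPM) and Rps24 (2868 TPM). The lowest parent rows were Rps12, Rps2, Rpl12, Rpl5 and Rpl21 (120 TPM), all families listed mainly under copies. Across the 6 groups the mean was highest in day 0 myoblasts for 52 families and in day 7 myotubes for 25. It was lowest in vehicle 72 h for 54 families, in dexamethasone 72 h for 13 and in dexamethasone 24 h for 10. The widest range of group means on the log2 scale of TPM was that of Rpl3 (1.14), followed by Rps12 (1.11) and Rpl12 (1.02).

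As a share of all TPM the families made up 14.8%, 18.6%, 15.3% and 17.5% in the day 0 libraries (replicates 1 to 4) and 16.0%, 16.6%, 13.0% and 15.4% in day 7 myotubes. In vehicle 24 h they made up 16.3%, 11.8%, 15.0% and 11.7%, and in dexamethasone 24 h 11.9%, 11.4%, 12.8% and 9.78%. In vehicle 72 h the values were 11.9%, 10.8%, 9.18% and 10.8%, and in dexamethasone 72 h 11.5%, 11.8%, 9.10% and 11.9%. The day 0 and day 7 libraries overlap, and vehicle 24 h splits into replicates 1 and 3, inside the day 7 range, and replicates 2 and 4, inside the dexamethasone 24 h range. Every 72 h library of either medium lay below every day 0 and day 7 library. Group means were 16.6% ± 1.82 (SD, n = 4) at day 0, 15.3% ± 1.56 at day 7, 13.7% ± 2.31 and 11.5% ± 1.26 in vehicle and dexamethasone at 24 h, and 10.7% ± 1.12 and 11.1% ± 1.33 at 72 h. These are shares of each library, so fewer transcripts of these genes per cell and more of other genes cannot be told apart, nor can fewer cells of a type and less RNA per cell. The share of mitochondrially encoded genes was 6.47% to 10.0% in vehicle 24 h and 9.28% to 15.8% in vehicle 72 h. With those genes taken out before TPM was rescaled, the summed TPM of the 349 rows was 132704 in vehicle 24 h and 107453 in vehicle 72 h, against 122058 and 95145 with them. In dexamethasone it was 112193 at 24 h and 112031 at 72 h, against 101747 and 98827 with them. The mean was lower at 72 h than at 24 h either way in vehicle, while in dexamethasone the times were level within their spread. A row of very high level, Gm15662, was at 61686 TPM in day 0 replicate 2, the day 0 library with the highest ribosomal protein share, and at 9898 to 13314 TPM in the other day 0 libraries. Its group means were 36255 TPM at day 7, 47957 and 31534 TPM in vehicle and dexamethasone at 24 h, and 31655 and 18866 TPM at 72 h. Its part in the shares was not tested.

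**Figure D2:**
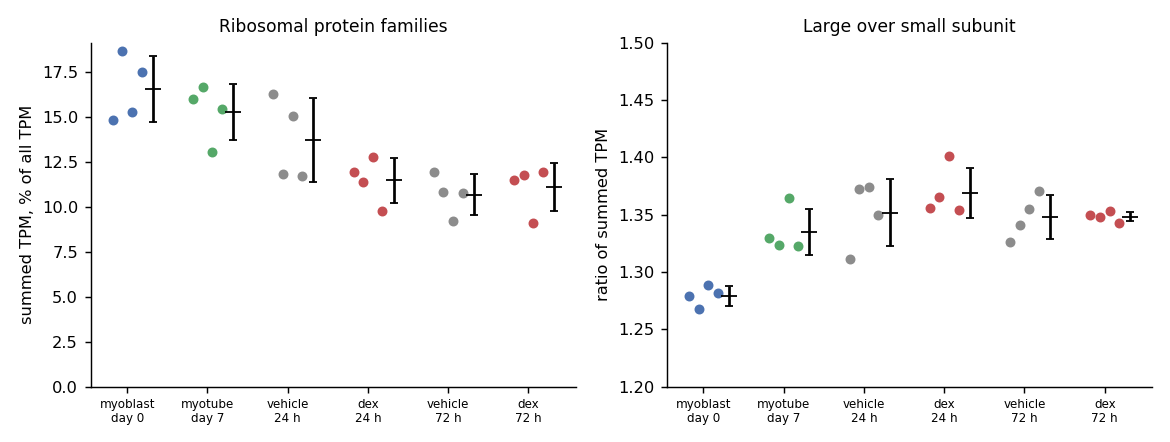
Family sums as a percent of all TPM (left, y axis from 0) and the ratio of large-subunit (with the stalk) to small-subunit TPM (right, y axis not from 0) in each of the 24 libraries, with group mean and SD. The share falls from 16.6% at day 0 to 10.7% in vehicle 72 h, and the ratio of the day 0 libraries lies below that of every other library.

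The balance of the subunits was almost the same in all libraries but shifted slightly after day 0. For the ratio of large-subunit to small-subunit TPM the stalk was counted with the large subunit. The ratio was 1.279 ± 0.0087 at day 0, with libraries between 1.268 and 1.289, and all later libraries lay above that range. It was 1.335 ± 0.0199 at day 7, 1.352 ± 0.0292 and 1.369 ± 0.0218 in vehicle and dexamethasone at 24 h, and 1.348 ± 0.019 and 1.348 ± 0.0042 at 72 h. The composition of the family sum shifted more for single families. The SD over 24 libraries of a family's log2 share had a median of 0.12 and ran up to 0.235 for Rpl41. Rpl41, which counts in the large-subunit part of the ratio, took 3.69% ± 0.231 of the family sum at day 0 and 5.47% ± 0.297 at day 7. How much of the shift in the ratio comes from Rpl41 alone was not tested. Rpl3 went from 0.996% ± 0.0543 to 0.705% ± 0.0564, and Rps12 from 2.92% ± 0.133 to 2.45% ± 0.148. These shares are descriptions and were not tested.

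Before the comparisons, libraries and cell identity were checked. The replicate 1 libraries at 72 h were read for genes of the other medium. For 14 genes at or below 0.1 TPM in the other vehicle 72 h libraries and at or above 1 TPM in the other dexamethasone 72 h libraries, vehicle replicate 1 held a median of 11.3% of the level in dexamethasone replicate 1. For 16 genes of the reverse kind, dexamethasone replicate 1 held 20.0% of the level in vehicle replicate 1. The same check at 24 h gave 0.36% in vehicle replicate 1, from 17 genes. It gave 83.0% in dexamethasone 24 h replicate 1, from only 5 genes. The other replicates served to pick the genes and were not read in this way. Whether replicate 1 differs from them in this respect was therefore not tested. All 7 tested myotube markers (Myog, Myh3, Myh1, Acta1, Ckm, Tnnt3 and Mylpf) rose from day 0 to day 7, and their summed level went from 246 to 391 TPM at day 0 to at least 14264 TPM in each later library. Of the 5 myoblast markers, 4 fell with differentiation, from a sum of 339 to 480 TPM at day 0 to 148 to 195 TPM at day 7. Adipoq and Plin1 of adipocytes, Myh11 of smooth muscle, Ptprc of immune cells, and Pecam1 and Cdh5 of endothelium had group means below 0.09 TPM throughout. Fabp4, the remaining adipocyte marker, was at 38.0 ± 9.31 TPM in dexamethasone 24 h and 75.2 ± 11.9 TPM in dexamethasone 72 h, against 0.145 ± 0.128 and 2.15 ± 3.99 TPM in vehicle. Summed fibroblast markers (Pdgfra, Col1a1, Dcn and Lum) ran from 195 to 454 TPM in vehicle 72 h and from 26.0 to 174 TPM in dexamethasone 72 h. Cd68 of immune cells had group means of 1.35 to 3.50 TPM, and Cnn1 of smooth muscle went from 8.25 TPM at day 0 to at most 2.53 TPM later.

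Differentiation was read as day 7 myotubes against day 0 myoblasts, a comparison that includes the change from 10% to 2% serum. Of the 123 member rows with enough signal to be tested, 4 were higher and 16 lower in myotubes (limma on the deposited log2 values, Benjamini-Hochberg adjusted p below 0.05 over 16257 genes). Over all genes tested, 30.5% were higher and 29.8% lower, so both shares of the members were below the background. As family sums of TPM, 2 of 78 families (the 77 and Rps27l) were higher and 19 lower, against 26% and 32.7% of all 15109 features. The median family difference was -0.13 on the log2 scale, near the -0.08 of all features. With TPM scaled by median-of-ratios factors, which moved the median of all features by over 0.1, the family median was 0.01 against 0.05, and 2 families were higher and 10 lower. Most families did not pass the test, and those that did are given by subunit.

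In the large subunit, 11 of 43 families fell and 1 rose, against 32.7% and 26% of all features. Rpl28 fell most. It was at 1500, 1623, 1604 and 1587 TPM in the day 0 libraries and at 1181, 1031, 925.7 and 906.4 TPM in day 7 libraries. The groups do not overlap, and the log2 difference was -0.65 (SE 0.093, limma adjusted p = 4.4e-06). The Rpl3 family was at 1573, 1737, 1536 and 1721 TPM at day 0 and at 1242, 1067, 931.2 and 1061 TPM at day 7. Again no day 7 library reached the lowest day 0 library, and the difference was -0.62 (SE 0.129, limma adjusted p = 0.000334). Rpl13 (-0.59), Rpl21 (-0.56) and Rpl7a (-0.55) followed, and Rpl23a, Rpl4, Rpl8, Rpl10 and Rpl30 were among the rest, between -0.54 and -0.34. Rpl41 went the other way, from 5215, 6514, 5726 and 6984 TPM to 8289, 9532, 6840 and 8834 TPM, a log2 difference of 0.45 (SE 0.182, limma adjusted p = 0.0379). Its groups overlap, since day 7 replicate 3 lay below day 0 replicate 4. The call was lost without day 7 replicate 1, 2 or 4 or without day 0 replicate 1 or 3 (limma adjusted p between 0.0605 and 0.112).

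In the stalk, 2 of 3 families fell and none rose, against 32.7% and 26% of all features. Rplp0, its scaffold, went from 2293, 2572, 2421 and 2632 TPM to 1931, 1900, 1698 and 1722 TPM, a log2 difference of -0.45 (SE 0.102, limma adjusted p = 0.000695). Rplp2 was lower by a log2 difference of -0.36 (limma adjusted p = 0.00343). Rplp1, at 3961, 6253, 4834 and 5296 TPM against 4123, 4594, 3618 and 3866 TPM, had a difference of -0.31 and did not pass (limma adjusted p = 0.076). Neither Rplp0 nor Rplp2 overlapped between the groups, while Rplp1 did. With scaled TPM neither Rplp0 (-0.31, limma adjusted p = 0.0535) nor Rplp2 (-0.22, limma adjusted p = 0.178) passed.

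In the small subunit, 6 of 31 families fell and none rose, against 32.7% and 26% of all features. Among them were Rps2 (-0.54), Rpsa (-0.52), the X-linked Rps4x (-0.52), Rps20 (-0.41) and Rps26 (-0.28). With scaled TPM the calls of Rpsa (limma adjusted p = 0.0659), Rps20 (0.117) and Rps26 (0.447) were lost, as were those of Rpl10 (0.175) and Rpl30 (0.162) in the large subunit. That of Rps26 was also lost without day 7 replicate 3 or without day 0 replicate 2, 3 or 4 (limma adjusted p between 0.0583 and 0.154). Rpsa, also known as the laminin receptor precursor, was at 1964, 2994, 2300 and 2615 TPM at day 0 and at 1839, 1832, 1439 and 1719 TPM at day 7. Fau, which encodes a ubiquitin-like protein fused to the small-subunit protein eS30, was at 1552, 1900, 1644 and 1814 TPM and at 1993, 1953, 1535 and 1715 TPM. Its groups overlap, and the log2 difference of 0.06 did not pass (limma adjusted p = 0.714). Rps12 had a difference of -0.37 that did not pass either (limma adjusted p = 0.0751).

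Among the single rows of the deposited log2 table, on which the Rpl3 row fell by 0.35 against 0.60 as log2(TPM + 0.1), the 5 lowest differences among the called rows were Rps12-ps4 (-0.91), Rpl21 (-0.44), Rps2 (-0.43), Rpl28 (-0.40) and Rpl28-ps1 (-0.39). The Rpl3 row (-0.35) and Rpl3-ps1 (-0.37) fell side by side. The 4 higher rows were Rpl31-ps21 (0.59), Rps27l (0.49), Rpl5 (0.38) and Rpl41 (0.37). Rpl5 binds 5S ribosomal RNA and can restrain Mdm2, the ubiquitin ligase of p53. Its own row rose, from 65.2, 84.9, 68.0 and 66.1 TPM to 83.0, 108, 94.2 and 104 TPM, but that row held only 4.56% of the family, whose sum went from 1539, 1936, 1552 and 1797 TPM to 1721, 1737, 1356 and 1681 TPM. The family sum was not called, and the day 0 and day 7 libraries overlap in it.

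Falls were called more often among long families. Of 23 families with a coding length over 600 bases, 11 fell and none rose, with a median log2 difference of -0.29. Over all features, 32.7% were lower and 26% higher. Of 45 families over 300 and up to 600 bases, 8 fell, with a median of -0.10. Of the 9 families of up to 300 bases, none fell and 1 rose, with a median of 0.09. Across the 77 families the difference had a Pearson r of -0.45 and a Spearman rho of -0.38 with coding length. The points share their libraries, and genes are not independent replicates. The same direction was present outside the ribosomal proteins: rho was -0.18 over 13749 other coding genes, and the 1687 of these with up to 600 coding bases had a median of 0.19 against -0.01 for all. What in the libraries or the cells moves with length was not tested.

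**Figure D3:**
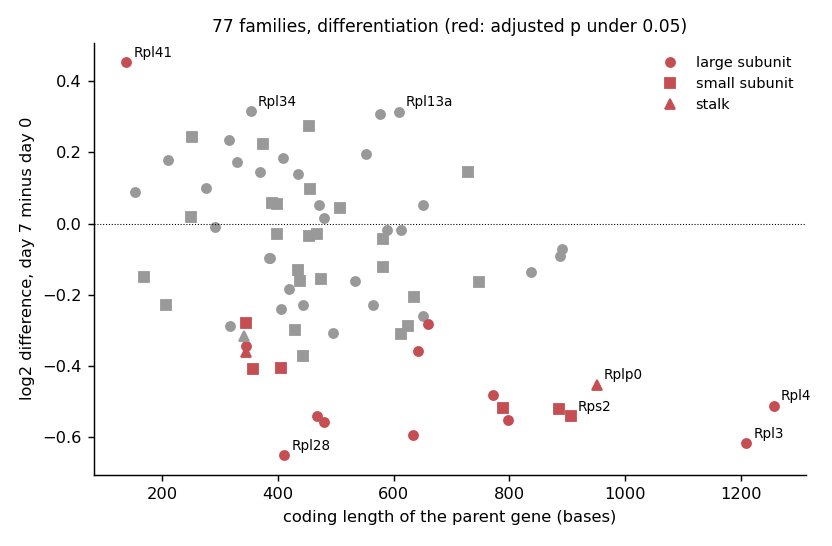
Log2 difference of family TPM, day 7 myotubes minus day 0 myoblasts (y axis), against the coding length of the parent gene in bases (x axis) for 77 families, with red for adjusted p below 0.05 and marker shape for the subunit. Families over 600 bases lie mostly below 0, and Rpl41, the shortest, is the called family above 0.

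The paralogues ranged from abundant to undetected. Rps27l, a close relative of Rps27, was at 605.3, 885.1, 581.5 and 715.3 TPM at day 0 and at 878.2, 1363, 953.4 and 1149 TPM at day 7. Its groups met at 1 library each, and it rose by a log2 difference of 0.64 (SE 0.17, limma adjusted p = 0.00279), a ratio of mean TPM of 1.56. It then stood at 803.7 to 1088 TPM in vehicle 24 h and 579.6 to 814.4 TPM in vehicle 72 h, with no call. Rpl10l was listed at 0 TPM in every library. Rpl39l was above 0 in 5 libraries with at most 0.128 TPM, and Rps4l in 1 library with 0.0614 TPM. Depth is unknown in these files, so no limit can be set from the zeros.

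Rpl3l was nearly absent from myoblasts and stayed low in myotubes. Its TPM was 0, 0, 0 and 0.0202 at day 0, and 0.112, 0.109, 0.0716 and 0.114 at day 7. In vehicle 24 h it was 0.301, 0.188, 0.0555 and 0.201, and in dexamethasone 24 h 0.25, 0.146, 0.144 and 0.153. In vehicle 72 h it was 0.388, 0.0456, 0.346 and 0.228, and in dexamethasone 72 h 1.02, 0.0511, 0.154 and 0.202. Day 0 lies below every later library. Day 7 lies wholly below dexamethasone 24 h, a pair that was not tested, and all other later groups overlap. The order of group means was day 0 (0.00504), day 7 (0.102), dexamethasone 24 h (0.173), vehicle 24 h (0.186), vehicle 72 h (0.252) and dexamethasone 72 h (0.357), and neighbours from dexamethasone 24 h on did not differ beyond their spread. The highest value is in dexamethasone 72 h replicate 1, against 0.0511 to 0.202 in the other libraries of that group. The log2 difference between day 7 and day 0 was 0.71 (SE 0.34) and did not pass (limma adjusted p = 0.0767). It passed with the replicate number as a block (adjusted p = 0.0399) and in a fit of these 2 groups alone (adjusted p = 0.0018). No other comparison called it. The dexamethasone difference at 72 h was 0.06, and -0.39 without dexamethasone replicate 1, so its direction rests on that library.

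Set against Rpl3 on the same per-length scale, Rpl3l was a trace. Rpl3l made up at most 0.739% of the Rpl3 parent row plus Rpl3l in any library, and that maximum was dexamethasone 72 h replicate 1. Against the whole Rpl3 family the group means ran from 0.0003% at day 0 and 0.0094% at day 7 to 0.0349% and 0.0461% in vehicle and dexamethasone at 72 h. The fall of Rpl3 with differentiation had a log2 difference between -0.60 and -0.29 for its row under every setting tried, with limma adjusted p-values up to 0.0242. After day 7 the Rpl3 family was at 1095, 814.8, 1017 and 821.2 TPM in vehicle 24 h and at 938.6, 751.2, 983.1 and 644.8 TPM in dexamethasone 24 h. In vehicle 72 h it was at 774.7, 801.9, 635.3 and 779 TPM and in dexamethasone 72 h at 793, 801.1, 653.5 and 787.9 TPM. Treated and vehicle libraries overlap at both times, and neither difference passed (24 h: -0.18, limma adjusted p = 0.317; 72 h: 0.02, limma adjusted p = 0.926). The genes whose deposited log2 values were most like those of Rpl3l over the 24 libraries were Ldhb (Pearson r = 0.866), Tceal5 (0.866), Mdh1 (0.862), Ky (0.86) and Cyfip2 (0.852). All of these values share the same 24 libraries, including the step from day 0 to day 7.

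**Figure D4:**
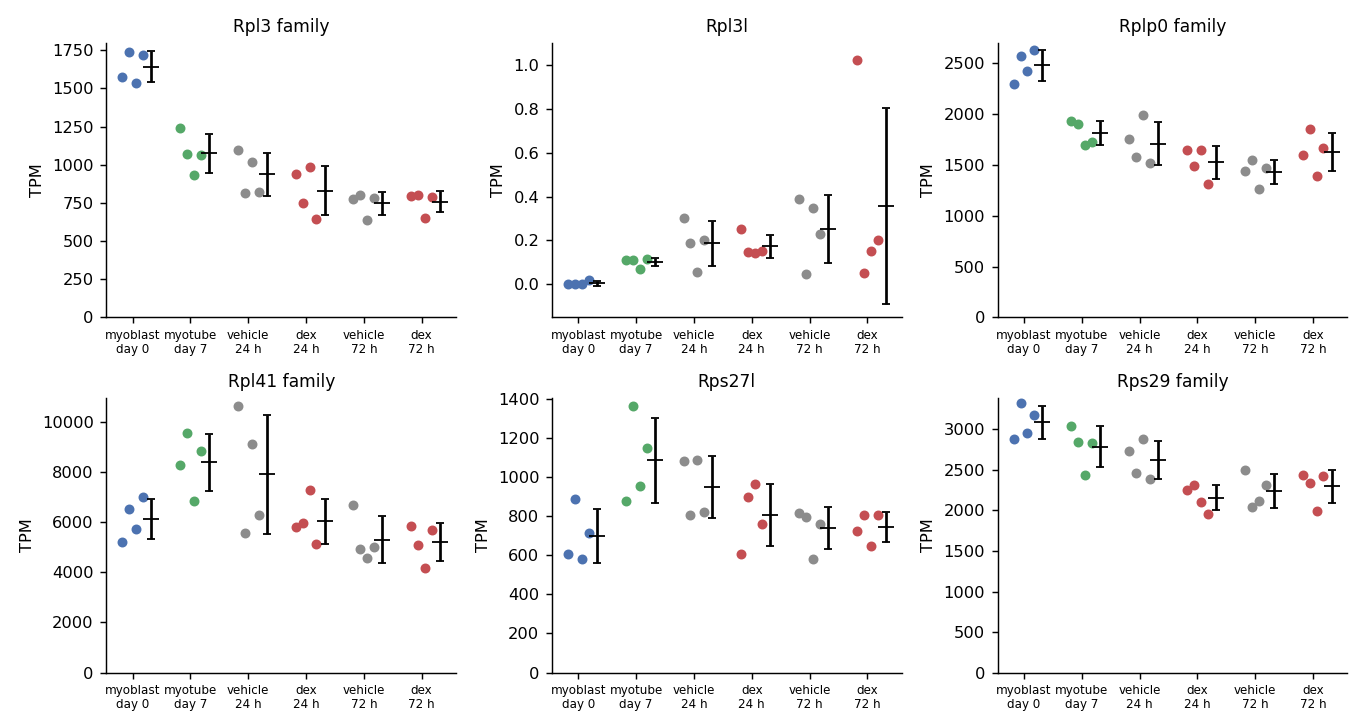
TPM per library (y axis, linear) in the 6 groups for the Rpl3 family, Rpl3l, and the Rplp0, Rpl41, Rps27l and Rps29 families, with group mean and SD; the Rpl3l axis starts below 0 to hold the error bar. Rpl3 and Rplp0 are highest in all 4 day 0 libraries, and the Rpl3l value of 1.02 TPM is dexamethasone 72 h replicate 1.

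Dexamethasone at 24 h was compared with vehicle at 24 h. Ribosomal protein rows were slightly lower as a set of values, and few passed. Of 123 rows, 115 were below 0, with a median log2 difference of -0.22 (-0.01 over all genes), but 0 were called higher and 5 lower (limma), against 13.2% and 12.2% of all genes. At an unadjusted p below 0.05, 41 rows were lower. No share of all genes at that threshold is given, here or in the comparisons below. Other short genes were lower as well: the 1687 other coding genes of up to 600 coding bases had a median of -0.16, and rho with coding length was 0.28 over the 13749 other coding genes and 0.35 over the 77 families. With the replicate number as a block, which pairs same-numbered libraries here, 10 rows were lower. Of the family sums, all 78 were below 0 with a median of -0.23, 0 were higher and 1 lower, against 14.2% and 7.68% of all features. The shares called were below the background in both tables.

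The called family was Rps29, a zinc-binding protein of the small subunit. It was at 2734, 2467, 2888 and 2382 TPM in vehicle and at 2256, 2313, 2105 and 1962 TPM in dexamethasone, with no overlap. The log2 difference was -0.28 (SE 0.094, limma adjusted p = 0.039), a ratio of mean TPM of 0.825. With scaled TPM the difference was -0.38 and did not pass (limma adjusted p = 0.0558). The Rps29 row (-0.27), Rpl36a (-0.33), Rpl36-ps2 (-0.82), Rpl17-ps5 (-0.68) and Rpl17-ps8 (-0.44) were the 5 called rows. Rpl36a, a large-subunit protein, was at 1432, 1143, 1435 and 1016 TPM in vehicle and at 986.2, 959, 1107 and 795.7 TPM in dexamethasone, where 1107 lies above the vehicle value of 1016. The Rpl36-ps2 row was at 2.56, 1.21, 1.61 and 1.18 TPM and at 0.251, 0.56, 0.677 and 0.148 TPM.

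The count at 24 h rests on single libraries. Without vehicle 24 h replicate 2, 27 rows and 5 families were lower, and without replicate 4, 9 rows and 3 families. No share of all genes is given for fits that leave out a library, here or in the comparisons below. Without vehicle 24 h replicate 1 or 3, or without dexamethasone 24 h replicate 4, 1 row and 0 families were called. No family was called without dexamethasone 24 h replicate 3 either. Vehicle replicates 2 and 4 are those with the low ribosomal protein share given above (11.8% and 11.7%), and replicates 1 and 3 those with the high one.

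At 72 h the dexamethasone and vehicle libraries had nearly the same levels. Of 123 rows, 2 were higher and 0 lower (limma; 0 rows lower at an unadjusted p below 0.05), against 15.2% in either direction over all genes, with a median of 0.05. Of the families, 1 was higher and 0 lower, against 11.6% and 15.3%, and the median was 0.06. Rpl30, a large-subunit protein, was the called family. It was at 1285, 1194, 1041 and 1131 TPM in vehicle and at 1309, 1576, 1206 and 1487 TPM in dexamethasone, a log2 difference of 0.26 (SE 0.092, limma adjusted p = 0.0419). The groups overlap, since dexamethasone replicate 3 lay below vehicle replicate 1. No family was called without dexamethasone 72 h replicate 2 or 4 or without vehicle replicate 2, 3 or 4, and 3 families were called without dexamethasone replicate 3. Both called rows belong to families listed under copies. The Rps2 row was at 8.14, 9.73, 9.87 and 10.6 TPM against 12.3, 11.4, 13.7 and 14.0 TPM (log2 difference 0.30, limma adjusted p = 0.0233). The Rps12 row was listed at 0 in all 4 vehicle libraries and at 2.85, 1.36, 0 and 10.1 TPM in dexamethasone (limma adjusted p = 0.0118), and no fold is given for it. At day 0 and in vehicle 24 h only 1 library each was above 0 for it. The Rps12 row may have entered the test through the group where it is high, so its call is not read as a result. Its family, at 1752 TPM or more in every library, did not pass (limma adjusted p = 0.818). Only 1 of these rows was called without dexamethasone 72 h replicate 4, without vehicle 72 h replicate 2, or without both replicate 1 libraries.

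The change of the dexamethasone difference from 24 h to 72 h was tested as an interaction. It was above 0 for all 77 parent rows and all 78 families, with a family median of 0.29 (-0.13 over all features; 0.41 against -0.01 with scaled TPM). In this test 2 rows were higher and 0 lower, against 5.56% and 5.77% of all genes, and 0 families passed, against 3.96% and 7% (limma; 15 families were higher at an unadjusted p below 0.05). The 2 rows were the low copies Rpl36-ps2 (1.201, limma adjusted p = 0.0138) and Rps24-ps3 (0.77, limma adjusted p = 0.0498). At 72 h Rpl36-ps2 was at 0.444, 1.38, 0.391 and 0.457 TPM in vehicle and at 1.55, 0.581, 1.23 and 1.47 TPM in dexamethasone, above vehicle replicates 1, 3 and 4 in every library. Rps24-ps3 was at 1.99 to 3.05 TPM in vehicle and 1.04 to 1.89 TPM in dexamethasone at 24 h, and at 0.828 to 2.29 TPM and 0.946 to 3.41 TPM at 72 h, where the groups overlap. Without dexamethasone 72 h replicate 3, 6 rows and 4 families were called, without vehicle 24 h replicate 2, 4 rows, and without dexamethasone 24 h replicate 3, 1 family. A single row was called without dexamethasone 72 h replicate 1 or 2, vehicle 72 h replicate 1, 2 or 3, dexamethasone 24 h replicate 1 or 4, or vehicle 24 h replicate 1, 3 or 4.

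Few members were called over time in vehicle medium, although most had values below 0. Between day 7 and vehicle 24 h, 0 rows were called in either direction (limma; 0 higher and 2 lower at an unadjusted p below 0.05), against 0.0984% and 0.111% of all genes, with a family median of -0.16. Without vehicle 24 h replicate 3, 1 row was called. Between vehicle 24 h and vehicle 72 h, the family median was -0.36 against 0.14 over all features (-0.50 with scaled TPM), and all 78 families were below 0. In the deposited log2 values the 1687 other short coding genes had a median of -0.15 against 0.01 for all other coding genes, and rho with coding length was 0.41 over those 13749 genes and 0.15 over the families. Of the rows, 0 were higher and 4 lower, against 2.67% and 1.69% of all genes (limma; 92 rows were lower at an unadjusted p below 0.05). No family passed in either direction, against 1.45% and 0.338% of all features at the same adjusted threshold. At an unadjusted p below 0.05, for which no share of all features is given, 64 families were lower. The 4 rows were Rpl21-ps15 (-0.90), Rpl10a (-0.45), Fau (-0.37) and Rps26 (-0.36). The Rpl10a, Fau and Rps26 rows held 64.7%, 23.7% and 66.0% of their families. Their calls were lost in 12, 11 and 12 of 17 alternatives, and that of Rpl21-ps15 in 12 of 16.

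Rps26 lies where mRNA leaves the small subunit. Its row was at 1418, 1156, 1386 and 1202 TPM in vehicle 24 h and at 1039, 954.4, 872.1 and 1051 TPM in vehicle 72 h, with no overlap. The Fau row was at 421.8, 352.4, 438 and 337.2 TPM and at 305, 294.2, 269.3 and 289.6 TPM, also without overlap. For Rpl10a, a protein of the large subunit, vehicle 72 h replicate 1 at 703.7 TPM met vehicle 24 h replicate 4 at 704.2 TPM, and the other 72 h libraries were at 579.6, 525.8 and 559.8 TPM. These counts also rest on the 24 h vehicle libraries, which this comparison shares with dexamethasone at 24 h. Without vehicle 24 h replicate 2, 52 rows and 34 families were lower. The share of all genes lower in that fit is not given, so these counts are not read as particular to the members. Without vehicle 24 h replicate 1 or 3 or vehicle 72 h replicate 1, 2 or 3 no row was called, and without vehicle 24 h replicate 4, 1 was. The summed TPM of the member rows was most like that of Rps3a2 (Pearson r = 0.953 over 24 libraries), Gm6436 (0.951), Gm11808 (0.945), Snrpe (0.945) and Lgals1 (0.944) among other genes.

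**Figure D5:**
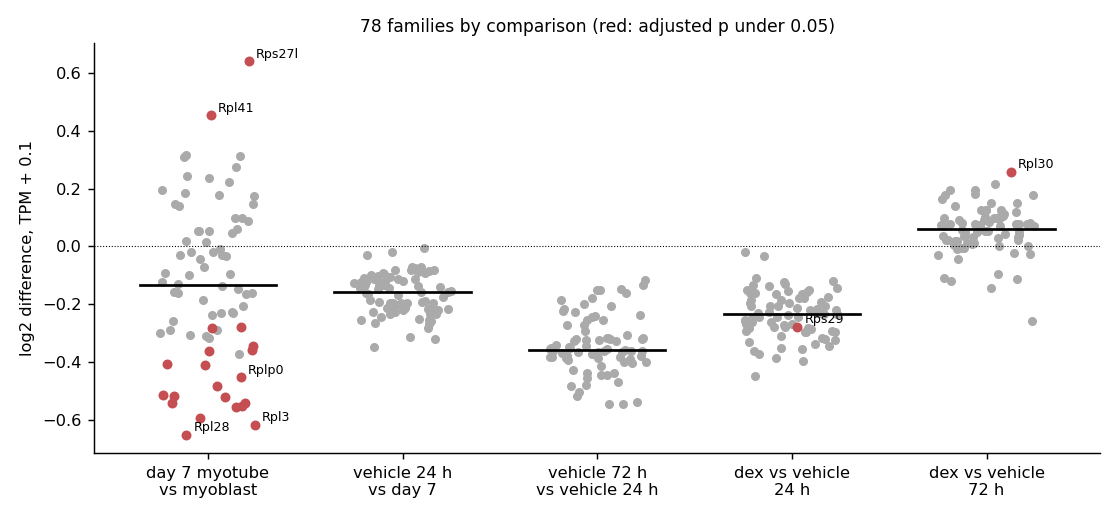
Log2 differences of family TPM + 0.1 (y axis) for 78 families in 5 comparisons, each point a family, the bar the median and red an adjusted p below 0.05. Differentiation spreads the families from -0.65 (Rpl28) to 0.64 (Rps27l), while in the other comparisons they lie close around medians of -0.16, -0.36, -0.23 and 0.06.

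Genes that build ribosomes are set beside the same shares of all genes (30.5% higher and 29.8% lower with differentiation, 13.2% and 12.2% with dexamethasone at 24 h, and 15.2% either way at 72 h). For the interaction the shares were 5.56% higher and 5.77% lower. Of 49 tested ribosome assembly factors, 4 rose and 24 fell with differentiation, among them Dkc1, the pseudouridine synthase of H/ACA particles (46.3 ± 5.15 to 16.6 ± 1.43 TPM, log2 difference -0.98), and Utp20 of the small-subunit processome (-0.93). Rrp12 (0.57) and Sbds (0.44) were among the 4. In dexamethasone at 24 h, 1 rose (Rrp12) and none fell. At 72 h, 34 of the 49 rose and none fell, with a list median of 0.24 against 0.01 over all genes. Dkc1 went from 16.1 ± 1.82 TPM in vehicle to 30.7 ± 5.32 TPM (log2 difference 0.65, limma adjusted p = 2.75e-06), and Utp20 from 6.8 ± 0.992 to 11.3 ± 1.81 TPM (0.52). Without both replicate 1 libraries 32 rose, and by log2(TPM + 0.1) 31 did. In that comparison 2 of the 123 ribosomal protein rows were higher. The interaction was above 0 and passed for 13 of the 49, led by Nhp2 (0.55) and Nop56 (0.52), and was called below 0 for none. By log2(TPM + 0.1) it passed for 8.

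Some myoblast markers also differed between dexamethasone and vehicle at 72 h. Mki67 was at 0.939 ± 0.651 TPM in vehicle and 7.21 ± 4.64 TPM in dexamethasone, Top2a at 5.37 ± 3.22 and 36.8 ± 21.6 TPM, and Myf5 at 10.8 ± 4.75 and 64.8 ± 10.3 TPM. These 3 of 5 rose and Pax7 fell, against 15.2% of all genes either way. The summed level of the 5 was 154 to 174 TPM in vehicle 72 h and 209 to 273 TPM in dexamethasone 72 h. At 24 h only Myf5 of the 5 was called, with sums of 149 to 161 TPM in vehicle and 208 to 242 TPM in dexamethasone. The part of these markers in the rise of the assembly factors was not tested.

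The smaller lists are read against those shares too. Of 14 tested genes of RNA polymerase I and rRNA transcription, 2 rose with differentiation (Rrn3, 0.24, and Polr1d, 0.23) and 8 fell, led by Tcof1 (-0.90) and Nolc1 (-0.49). In dexamethasone, 1 rose and 1 fell at 24 h (Polr1a and Taf1b), and 4 rose and 1 fell at 72 h, where Polr1b and Nolc1 rose by 0.36 each. The interaction passed for 2, Nolc1 (0.35) and Tcof1 (0.31), and for none by log2(TPM + 0.1). Of 9 chaperones that escort single ribosomal proteins, 3 rose and 3 fell with differentiation, near the shares of all genes, with Zfp622 (0.57) and Pdcd2l (0.55) at one end and Grwd1 (-0.39), the chaperone of Rpl3, and Tsr2 (-0.26), that of Rps26, at the other. At 72 h of dexamethasone Grwd1 (0.24) and Ltv1 (0.21) rose, and at 24 h none was called.

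The 20 translation factors and other genes with 5′TOP mRNAs include genes that share the motif without being ribosomal proteins. With differentiation 1 rose (Eif3m, 0.26) and 8 fell, led by Hnrnpa1 (871 ± 71.1 to 223 ± 49.5 TPM, log2 difference -1.37) and the poly(A)-binding protein Pabpc1 (819 ± 77.1 to 305 ± 35.04 TPM, -0.94). Against 30.5% and 29.8% of all genes, fewer of the 20 rose and more fell. By log2(TPM + 0.1) 12 fell. Eef1a1, the main elongation factor, was at 7298 ± 413 and 6470 ± 290 TPM and was not called (limma adjusted p = 0.698). In dexamethasone, Eif4b rose at 24 h (0.23), and 5 rose at 72 h (against 15.2% of all genes), led by Pabpc1 (0.47) and Hnrnpa1 (0.41), with 3 by log2(TPM + 0.1). The interaction passed above 0 for 3, among them Hnrnpa1 (0.46), against 5.56% of all genes. In vehicle Naca was lower at 72 h than at 24 h (-0.28), against 1.69% of all genes. Eef1a2, the elongation factor form of adult muscle, stayed at a trace like Rpl3l. It went from 0.0024 ± 0.0049 TPM at day 0 to 0.0741 ± 0.0379 at day 7, 0.282 ± 0.068 in vehicle 24 h and 1.2 ± 0.468 in vehicle 72 h. These steps passed (limma adjusted p = 0.00544, 0.0472 and 0.00972). The step from day 7 to vehicle 24 h passed in 4 of its 15 alternatives and was lost, for example, without vehicle 24 h replicate 2 (limma adjusted p = 0.117) or 4 (0.189), without day 7 replicate 1 (0.19), 2 (0.0578), 3 (0.0567) or 4 (0.148), or with only these groups fitted (0.139). The step to vehicle 72 h was lost with only its groups fitted (0.129), and that from day 0 with a pseudocount of 1 on TPM (0.501).

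Of 21 tested regulators of ribosomal protein synthesis, 7 rose and 7 fell with differentiation, near the 30.5% and 29.8% of all genes, with Mdm2 (0.67) and the mTOR inhibitor Deptor (0.43) at one end and Trp53 (-0.76) and Eif4ebp2 (-0.72) at the other. In dexamethasone at 24 h, 9 rose and Trp53 fell (-0.19), against 13.2% and 12.2% of all genes. Ddit4, an inhibitor of mTORC1, went from 26.8 ± 3.41 to 128 ± 35.05 TPM (log2 difference 1.5), and Sesn1, another, from 30.8 ± 7.52 to 93.8 ± 22.0 TPM (1.07). At 72 h, 8 rose and Mxd4 fell (-0.34), against 15.2% either way. Eif4ebp2, a repressor of cap-dependent initiation, rose from 30.8 ± 4.17 to 66.4 ± 7.08 TPM, and Myc, an activator of ribosome genes, from 20.4 ± 4.03 to 41.8 ± 4.97 TPM. By log2(TPM + 0.1), 4 rose at 72 h. The interaction passed for 2 above 0 (Myc, 0.44, and Trp53, 0.35) and 4 below 0, led by Ddit4 (-1.15) and Sesn1 (-0.76). Over all genes these shares were 5.56% and 5.77%.

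The name pattern misses 7 ribosomal proteins and paralogues. With differentiation Rpl7l1 rose (0.15) and the other 6 were not called, although 3 of the 7 were lower by log2(TPM + 0.1). Rpl36al was lower in dexamethasone at 24 h (417 ± 39.9 to 349 ± 19.6 TPM, log2 difference -0.24, limma adjusted p = 0.027). Rpl22l1, the paralogue of Rpl22, had group means of 649 ± 135 TPM at day 0, 453 ± 103 at day 7, 301.3 ± 97.6 and 221 ± 94.1 in vehicle and dexamethasone at 24 h, and 203 ± 61.1 and 195 ± 64.3 at 72 h. None of its differences was called. Rack1, a scaffold on the small subunit, was at 1520 ± 82.5 TPM at day 0 and 1233 ± 137 TPM at day 7.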

How the data were processed

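RNA of 24 C2C12 libraries (6 groups of 4) was measured with a stranded poly(A) kit, per the labels' protocols. The submitters' processing notes name the build GRCm39 and, without saying what each was used for, kallisto 0.51.1, Salmon and DESeq. The authors deposited 2 tables of 48544 genes: TPM, and normalised values on a log2 scale by a method not given in the sources used here. The design had assumed normalised counts. Sequencing depth is unknown, so no counting interval is given. Between 12427 and 13029 genes per library reached 1 TPM.

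The deposited log2 values were fitted as they stand with limma 3.58.1 in R 4.3.3 (trend, all 24 libraries, 1 mean per group) for 16257 genes with a linear value of at least 10 in at least 4 libraries. Family sums were fitted as log2(TPM + 0.1) over 15109 features at 0.5 TPM or more in at least 4 libraries. Copies were found with BLAST+ 2.17.0 on transcripts of a reference of build GRCm38, and 348 of the 349 symbols matched. The fits were tested on simulated data. Same-numbered libraries deviated together for differentiation (r 0.145 to 0.212), 24 h (0.201 to 0.391) and 72 h (0.117 to 0.338) of dexamethasone. The main fits did not pair libraries by these numbers, and the replicate block, which does, was run only as an alternative. The labels give the numbers no meaning.

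Members and lists were chosen with earlier results of these data known. Named were Rpl3, Rpl3l, the stalk, Rpsa, Fau, the paralogues, all members called (the 5 largest where over 10), the 5 highest and lowest levels, the 3 widest spreads, the 5 genes most like Rpl3l or the sum, and 2 called members per list and direction. Other genes were named after their values were seen. Some members are not reported here by name. Family sums with their alternatives, and the alternatives of the list counts, were chosen after seeing the data. Alternatives were TPM in place of log2, pseudocounts 0.1 and 1, median-of-ratios and quantile scaling, other filters, a replicate block, the compared groups alone, and leaving out libraries.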

Additional observations from a re-analysis of the deposited data

Results flagged for a closer look

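Among 174 groups of 4 values, 18 had a library whose gap to its nearest neighbour, as a share of the group's range, was over Dixon's critical value for 4 samples, and chance gives about 1 in 20. All low values at 72 h were in replicate 3. In vehicle these were Rpl3 (635 TPM), Rpl23a (1420), Rplp1 (2422) and Rps4x (878). In dexamethasone they were Rpl3 (654 TPM), Rpl13 (992), Rpl36a (827) and the family share of all TPM (9.10%). The high values at 72 h were Rpl3l in dexamethasone replicate 1 (1.02 TPM, others 0.0511 to 0.202) and Rpl36-ps2 in vehicle replicate 2 (1.38 TPM, others 0.391 to 0.457).

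Among day 0 libraries the Rpl5 row stood at 84.9 TPM in replicate 2, and replicate 4 alone was above 0 for Rpl3l (0.0202 TPM) and the Rps12 row (1.84 TPM). In day 7 myotubes Rps26 was low at 1909 TPM and Rpl3l at 0.0716 TPM, both in replicate 3, and 1 library had a large-to-small ratio of 1.365. In vehicle 24 h, replicate 1 alone was above 0 for the Rps12 row (1.84 TPM), and in dexamethasone 24 h Rpl3l was high in replicate 1 (0.25 TPM).

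The dexamethasone difference changed between 24 h and 72 h for Rpl36-ps2 (interaction 1.201, limma adjusted p = 0.0138) and Rps24-ps3 (0.775, limma adjusted p = 0.0498). Rpl36-ps2 had 3 of 4 vehicle libraries at 0.391 to 0.457 TPM at 72 h and all 4 at 1.18 TPM or more at 24 h.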

How the results depend on the processing

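The fall of Rpl3 with differentiation kept its direction and its call under all 16 alternatives for its row and all 10 for its family. Counts of called rows moved most. No share of all genes under an alternative is given beside these counts. For differentiation the called rows were 20, and 32 by log2(TPM + 0.1), 31 by log2(TPM + 1), 31 after quantile scaling and 15 to 23 leaving out a library. Families were 21, 12 after median-of-ratios scaling and 19 to 25 leaving out a library. For dexamethasone at 24 h rows were 5, and 3 by either TPM pseudocount, without a filter or with only the compared groups, 9 after quantile scaling and 1 to 27 leaving out a library. Families were 1, 0 after scaling and 0 to 5 leaving out a library. At 72 h rows were 2, and 4 by log2(TPM + 1), 1 at a linear value of at least 100, with only the compared groups or without both replicate 1 libraries, and 1 to 3 leaving out a library. Families were 1, 0 after scaling and 0 to 3. For the interaction rows were 2, and 1 by either TPM pseudocount, without a filter, with only the compared groups or without both replicate 1 libraries, 0 at 100, and 1 to 6 leaving out a library (families 0 to 4). For vehicle 72 h against 24 h rows were 4, and 0 by either TPM pseudocount, without a filter or with only the compared groups, 1 after scaling or without both replicate 1 libraries, 10 at 100, and 0 to 52 leaving out a library (families 0 to 34). For vehicle 24 h against day 7 rows were 0 to 1 leaving out a library. Rescaled without mitochondrially encoded genes the summed TPM was 107453 in vehicle 72 h and 112031 in dexamethasone 72 h. With the replicate block, rows were 10 and families 2 at 24 h of dexamethasone, and rows 9 and families 1 for vehicle 72 h against 24 h, where the numbers do not pair the samples (r -0.249 to 0.565). The block also called Rpl3l with differentiation and Rpl3 for vehicle 72 h against 24 h, and moved no other count by over 1.5 times.

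Rpl3l changed direction without both replicate 1 libraries at 72 h for dexamethasone (-0.228), the interaction (-0.181) and vehicle 72 h against 24 h (-0.027). Leaving out a library, it ran from -0.25 to 0.115 at 24 h, -0.39 to 0.361 at 72 h, -0.343 to 0.407 in the interaction and -0.069 to 0.417 in vehicle, and the Rpl3 family at 72 h of dexamethasone from -0.054 to 0.093. The mean share of Rpl3l in the Rpl3 row plus Rpl3l ran from 0 to 0.0024% at day 0, 0.0516% to 0.0587% at day 7, 0.0993% to 0.143% and 0.113% to 0.138% in vehicle and dexamethasone at 24 h, and 0.167% to 0.259% and 0.104% to 0.338% at 72 h. The cause of these shifts was not tested.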
